A study of Danio rerio with 2 samples.

Results

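The collagen genes were described in single cells of the zebrafish larval gut. Every gene was taken whose symbol in the deposited gene list starts with col, a number, the letter a and a further number, whatever its level. This gave 54 symbols (56 gene identifiers) of the 27056 symbols listed. Among them, col4a3bpa and col4a3bpb encode ceramide transfer proteins that share only the first letters of the symbol, and they are given apart at the end. The other 52 are collagen genes of 21 collagen types. Symbols col6a3 and col19a1 each stand for a pair of identifiers whose counts were added. No cell selection, cluster or comparison was used to choose the genes, and the choice of the family itself was made with earlier results of these data known.

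The study prepared guts dissected at 5 days post-fertilization (dpf) from il26KO larvae, homozygous for a CRISPR/Cas9 mutation of il26, which encodes the cytokine interleukin-26, and from wild-type (WT) larvae. Parents of both genotypes were clutchmates housed in separate tanks, and no allele other than that of il26 is named for either group. In each condition 50 guts, dissociated in 5 tubes of 10 with collagenase A, proteinase K and trypsin, were pooled into 1 droplet library made from the 3' ends of transcripts. The unit throughout is the UMI, a molecular barcode that counts each captured transcript once. With 1 library of pooled larvae per genotype there is no replicate, no test was possible, and every interval printed is a 95% interval that covers counting error only.

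Collagens are trimeric extracellular proteins. Fibrillar collagens such as types I, II and V build the tensile fibers of connective tissue, type IV forms the sheet-like network of basement membranes, type VI makes beaded filaments around cells, and the remaining types attach to fibrils, span the cell membrane or release bioactive fragments. In the gut wall, fibroblasts, smooth muscle and the covering mesothelium are known producers, and the epithelium rests on a type IV sheet. Chains of 1 type assemble in fixed combinations, so the text below is ordered by type and by the partners within it.

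The libraries held 122200924 UMIs in il26KO and 125236138 UMIs in WT, and 3842 il26KO cells and 5123 WT cells passed the filters, with a median of 14188 UMIs per cell in il26KO and 10219 UMIs in WT. Barcodes with at least 500 detected genes numbered 4268 in il26KO and 5661 in WT, and 11 of these barcodes occurred in both. The targeted transcript had 0 UMIs in il26KO and 1 UMI in WT over all barcodes, too few to check the label. Cells fell into 28 clusters, made without any collagen or other listed matrix gene, and 16 classes were named from fixed markers and called by those names with the ending -like. Cluster 19, led by genes that include sparc, pdgfrb and rgs5a, met the rule for no name and is given by its number. Levels are given as CPM, the UMIs of a gene per 1000000 UMIs of the cell class. They compare cell classes and genotypes for a gene, and between genes they compare captured transcript ends, which do not scale with transcript length. Droplets with 10 to 100 UMIs, which hold free RNA, gave a summed collagen level of 669.9 CPM in il26KO and 991 CPM in WT. Those values served as a cautious limit, and levels at or below them were not read as expression. Such levels were not shown to be free RNA either, since some classes, given below, lay far under the limit.

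Collagen transcripts were concentrated in 5 groups of cells: the smooth muscle-like, mesenchymal-like and mesothelial-like classes, cluster 19 and, at a lower level, vascular endothelial-like cells. The summed level of the 52 genes was 15234 CPM in il26KO and 15619.7 CPM in WT for smooth muscle-like cells and 11636 CPM in il26KO and 12049.7 CPM in WT for mesenchymal-like cells, more than 1% of all their transcripts. Mesothelial-like cells, the gut's outer covering, had 7115 CPM in il26KO and 8725 CPM in WT, and cluster 19 had 5695 CPM in il26KO and 6675 CPM in WT. Vascular endothelial-like cells had 1253 CPM in il26KO and 1014 CPM in WT, which in WT lay only just above the empty droplets. In every other named class the summed level stayed below that of the empty droplets of its own library. The highest of these was 579 CPM in il26KO and 416 CPM in WT in epidermal-like cells, where cluster 9 alone had 799.9 CPM in il26KO and 403 CPM in WT. Without the 5 cells richest in collagen of each library, cluster 9 had 382 CPM in il26KO and 279 CPM in WT. Anterior enterocyte-like cells, the most numerous class, had 78.8 CPM in il26KO and 75.8 CPM in WT.

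**Figure D1:**
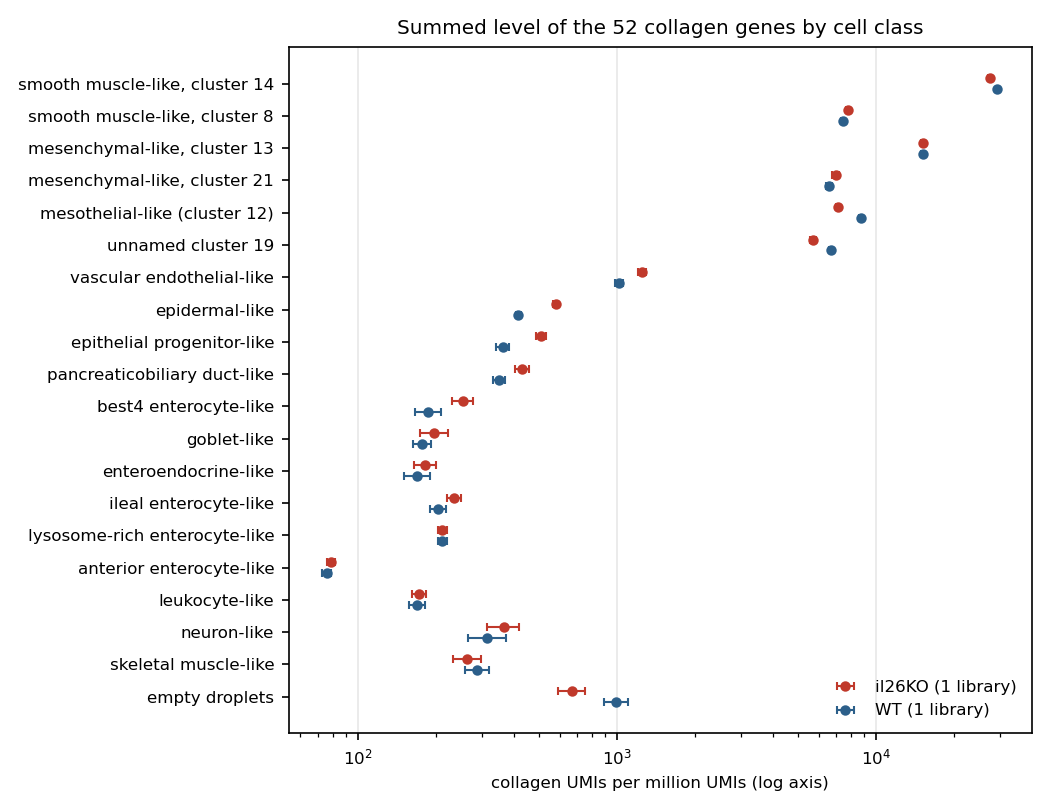
Summed level of the 52 collagen genes (horizontal logarithmic axis, collagen UMIs per 1000000 UMIs) in the collagen-rich clusters, the other named classes and the empty droplets, with the il26KO point above the WT point and 95% intervals of counting error. Cluster 14 stands furthest right, at 27325 CPM in il26KO and 29277 CPM in WT, and the classes from epidermal-like to skeletal muscle-like lie left of the empty droplets of their own library.

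Both leading classes were mixtures. The smooth muscle-like class joined cluster 14 and cluster 8, and the mesenchymal-like class joined cluster 13 and cluster 21. Cluster 14 had the highest summed collagen level of the 28 clusters, 27325 CPM in il26KO and 29277 CPM in WT. Its contractile markers were at moderate levels, with acta2 (smooth muscle actin) at 4801 CPM in il26KO and 5640 CPM in WT. It held almost no desmb (the muscle intermediate filament desmin, 6.43 CPM in il26KO and 6.22 CPM in WT), and it also carried the fibroblast marker pdgfra at 651 CPM in il26KO and 629 CPM in WT. Cluster 8 had far more contractile transcript, with acta2 at 22006 CPM in il26KO and 28528 CPM in WT, and desmb at 5043 CPM in il26KO and 6209 CPM in WT. Its collagen level was 7760.0 CPM in il26KO and 7411 CPM in WT. The leading genes of cluster 14 included sparc and rgs5a, as did those of cluster 19. The 10 mesenchymal markers together summed to 1821 CPM in il26KO and 2013 CPM in WT in cluster 14. They summed to 1694 CPM in il26KO and 1177 CPM in WT in cluster 8, and to 4416 CPM in il26KO and 4835 CPM in WT in cluster 13. Clusters 14 and 8 thus both carried markers of both classes, and in il26KO the summed mesenchymal markers hardly set them apart. Clusters are given singly wherever they differ. Cluster 13 had 15146 CPM in il26KO and 15120.3 CPM in WT, and cluster 21 had 6959 CPM in il26KO and 6578 CPM in WT.

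Few genes supplied most of the collagen transcript. The 10 most abundant genes held 79.4% of the 237833 collagen UMIs in kept cells, led by col6a1 with 11517 UMIs in il26KO and 25921 in WT. With at least 200 UMIs over both libraries, 35 genes were described one by one, and the other 17 had between 5 and 186 UMIs. For each gene the class with the highest level over both libraries was taken as its main class, among the 15 classes with at least 20 cells in each library. Of the 35 genes, 17 had the mesenchymal-like class as their main class, 8 the smooth muscle-like class, 6 the mesothelial-like class, 2 the epidermal-like class, 1 the neuron-like class and 1 the pancreaticobiliary duct-like class. The unnamed cluster was not among the 15 classes, although col4a1, col4a2, col15a1b and col18a1b were highest there. Epidermal-like col10a1a had nearly all its UMIs in 1 cell. Neuron-like col11a2 and duct-like col28a1a had low levels that were not read as expression, as given below. The tally thus ranks levels among named classes and does not show expression in each. The main class was the same in il26KO and WT for 24 of the 35. The heat map of the 35 genes shows these patterns.

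**Figure D2:**
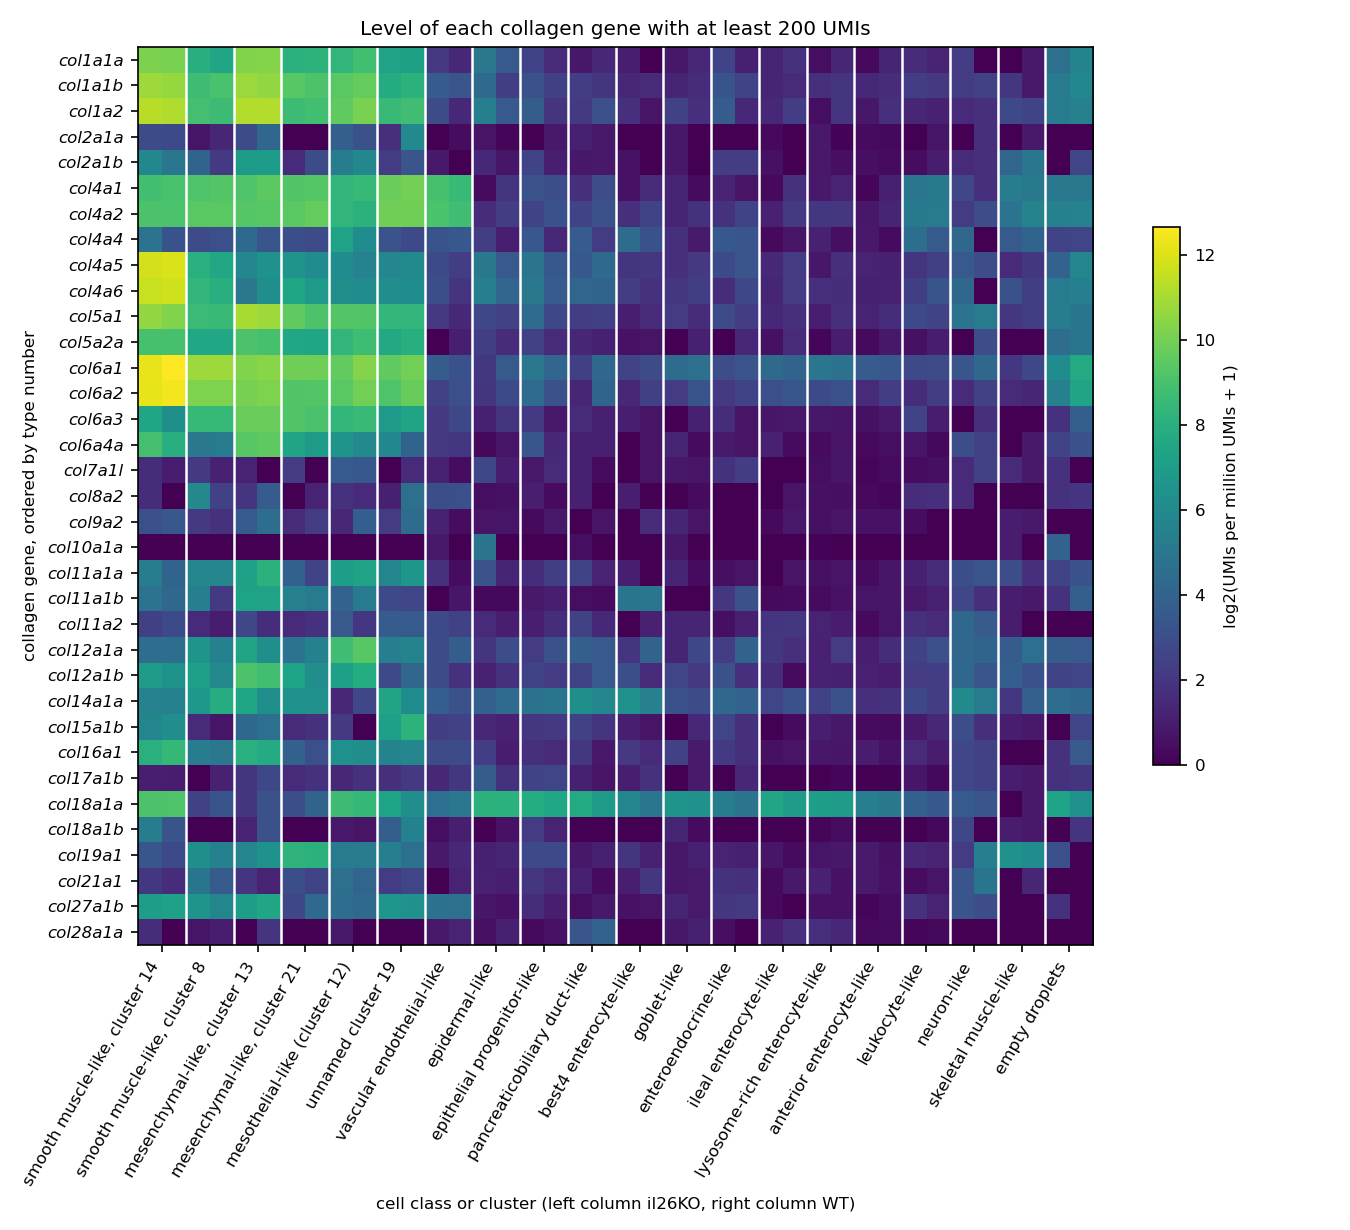
Level of each of the 35 collagen genes with at least 200 UMIs (rows, ordered by collagen type) in the collagen-rich clusters, the named classes and the empty droplets (columns, il26KO left of WT in each), as log2 of CPM plus 1. Types I, V and VI are bright in the 6 leftmost pairs of columns, col4a5 and col4a6 are brightest in cluster 14, and col18a1a has color across the epithelial columns.

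Type I collagen, the main fibril of connective tissue, is built in zebrafish from the chains of col1a1a, col1a1b and col1a2. All 3 had their highest levels in clusters 13 and 14. In cluster 13, col1a2 had 2408 CPM in il26KO and 2417 CPM in WT, col1a1b 1719 CPM in il26KO and 1588 CPM in WT, and col1a1a 1244 CPM in il26KO and 1271 CPM in WT. Cluster 14 had 2588 CPM in il26KO and 2293 CPM in WT for col1a2. Desmin-rich cluster 8 stayed lower, with 489.7 CPM in il26KO and 406 CPM in WT. Across the 28 clusters the level of col1a2 went with those of col1a1a (Pearson's r = 0.97) and col1a1b (r = 0.92), a description over clusters of 2 shared libraries. The share of the chains was not fixed, however. For each col1a1b UMI there were 0.646 col1a1a UMIs in il26KO and 0.669 in WT in cluster 14, against 0.411 in il26KO and 0.521 in WT in cluster 21.

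Type V collagen, which nucleates type I fibrils and limits their width, followed type I. Its chain gene col5a1 had 2108 CPM in il26KO and 1795 CPM in WT in cluster 13 and 1554 CPM in il26KO and 1241 CPM in WT in cluster 14. The partner col5a2a was lower in the same cells, with 564 CPM in il26KO and 504 CPM in WT in cluster 13. The number of col5a1 UMIs per col5a2a UMI was 3.74 in il26KO and 3.56 in WT in cluster 13, and 1.92 in il26KO and 1.41 in WT in mesothelial-like cells. Both libraries thus had a lower ratio in the mesothelial-like cells. Genes col5a2b, col5a3a and col5a3b each stayed under 200 UMIs over both libraries.

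The minor and cartilage-associated fibrillar genes were lower. Type XI chains join type II fibrils in cartilage. Gene col11a1a reached 152 CPM in il26KO and 278 CPM in WT in cluster 13 and 131 CPM in il26KO and 156 CPM in WT in mesothelial-like cells, and col11a1b 164 CPM in il26KO and 159 CPM in WT in cluster 13. Gene col11a1b was also counted outside the stroma, in best4 enterocyte-like cells, a minor ion-transporting epithelial type, at 29.5 CPM in il26KO and 30.8 CPM in WT. Empty droplets had 2.49 CPM in il26KO and 13.4 CPM in WT of it and anterior enterocyte-like cells 0.627 CPM in il26KO and 0.726 CPM in WT. In WT the empty-droplet level rests on few UMIs, and its interval overlaps that of best4 enterocyte-like cells (22.9 to 40.6 CPM). The WT level in best4 enterocyte-like cells was therefore not separated from free RNA. Gene col27a1b, a fibrillar chain of developing cartilage, was spread over clusters 13 and 14, with 137 CPM in il26KO and 182 CPM in WT in cluster 13 and 137 CPM in il26KO and 149.9 CPM in WT in cluster 14. The type II gene col2a1b had 119 CPM in il26KO and 122 CPM in WT in cluster 13.

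In cluster 19, cartilage-type transcripts came from very few cells. The cartilage collagen gene col2a1a had 2 UMIs in il26KO and 96 in WT in cluster 19, and 53 of the WT UMIs were in 1 cell. That cell also held 20 of the 32 col9a3 UMIs, 18 of the 32 col9a2 UMIs, 57 of the 122 matn1 UMIs and 33 of the 51 cnmd UMIs of its cluster in that library. Genes col9a2 and col9a3 encode chains of the fibril-associated type IX collagen of cartilage, and matn1 and cnmd are cartilage matrix genes. Within cluster 19, 2 of 79 il26KO cells and 3 of 161 WT cells held any col2a1a UMI. Differences in these genes between genotypes in cluster 19 were therefore read as differences in a few cells. The cluster held 96 of the 172 col2a1a UMIs of WT but only 32 of its 166 col9a2 UMIs, so this reading does not extend to other classes.

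Type IV collagen, the network collagen of basement membranes, is encoded by 6 genes here. In the gene table of the RefSeq zebrafish assembly they lie as neighboring pairs, col4a1 with col4a2, col4a3 with col4a4, and col4a5 with col4a6, and in mammals the members of such a pair are transcribed away from each other. The pairs differed in where they were detected. Genes col4a5 and col4a6 were concentrated in cluster 14, with 3729 CPM in il26KO and 3973 CPM in WT for col4a5 and 3167 CPM in il26KO and 3507 CPM in WT for col4a6. Smooth muscle-like cells held 88.3% of all col4a5 UMIs and 84.8% of all col4a6 UMIs of kept cells. Cluster 8 of the same class had 259.8 CPM in il26KO and 189 CPM in WT of col4a5, and cluster 13 had 57.3 CPM in il26KO and 91.2 CPM in WT.

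The share of cells with col4a5 gave the same picture. In cluster 14, 98.7% of il26KO cells and 99.0% of WT cells held a UMI of it, and 93.5% and 95.6% did so after each cell was thinned to 1000 UMIs (0 il26KO and 5 WT cells were shallower and left out). In cluster 8 the thinned shares were 23.8% in il26KO and 14.7% in WT (57.0% and 46.8% unthinned, 2 il26KO and 5 WT cells left out). Leukocyte-like cells, taken as a class that should lack this basement membrane chain, had thinned shares of 0.862% in il26KO and 0.791% in WT (5.98% and 6.32% unthinned, 2 il26KO and 0 WT cells left out). The median depth was 12399 UMIs in il26KO and 9789 UMIs in WT per cluster 14 cell, 12132 UMIs in il26KO and 12267 UMIs in WT per cluster 8 cell, and 23969 UMIs in il26KO and 17886 UMIs in WT per leukocyte-like cell.

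The ubiquitous pair col4a1 and col4a2 was spread more evenly. Cluster 19 had the highest level of both, with 864 CPM in il26KO and 1038 CPM in WT for col4a1 and 983 CPM in il26KO and 980.4 CPM in WT for col4a2. Clusters 8, 13, 14 and 21 lay lower, for col4a1 between 455 and 597 CPM in il26KO and between 519 and 715 CPM in WT. In vascular endothelial-like cells, which lay down the basement membrane of capillaries, col4a1 had 510.1 CPM in il26KO and 391 CPM in WT, and type IV chains made up 86.0% of all collagen UMIs in il26KO and 83.4% in WT. Epithelial classes had little of either gene, with 0.186 CPM in il26KO and 1.14 CPM in WT for col4a1 in anterior enterocyte-like cells. Thus for every col4a1 UMI, cluster 14 held 8.2 col4a5 UMIs in il26KO and 7.65 in WT, whereas vascular endothelial-like cells held 0.0120 in il26KO and 0.010 in WT.

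The third pair was highest in the mesothelial-like class, whose cells also carried mesenchymal markers, given below. In mesothelial-like cells col4a4 had 159 CPM in il26KO and 71.4 CPM in WT, and col4a3, the lower partner, had 53.3 CPM in il26KO and 26.3 CPM in WT. Clusters 8, 13 and 21 held no col4a3 UMI in either library. In contrast to the tight pairs, col4a4 UMIs were also counted almost without the partner. Leukocyte-like cells had 22.6 CPM in il26KO and 10.9 CPM in WT of col4a4, and best4 enterocyte-like cells 21.7 CPM in il26KO and 8.01 CPM in WT. Empty droplets had 4.98 CPM in il26KO and 5.37 CPM in WT, from 2 UMIs in each library. So few UMIs do not separate the WT levels, or the il26KO level of best4 enterocyte-like cells, from free RNA, and these were not read as expression. The partner col4a3 had 0 UMIs in il26KO and 1 in WT in leukocyte-like cells and 0 UMIs in il26KO and 0 in WT in best4 enterocyte-like cells. Over the 28 clusters the levels within a pair gave r = 0.99 for col4a1 and col4a2, 0.99 for col4a5 and col4a6, and 0.45 for col4a3 and col4a4, against 0.67 between col4a1 and col4a5 of different pairs. These values describe clusters of the same libraries and carry no test.

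**Figure D3:**
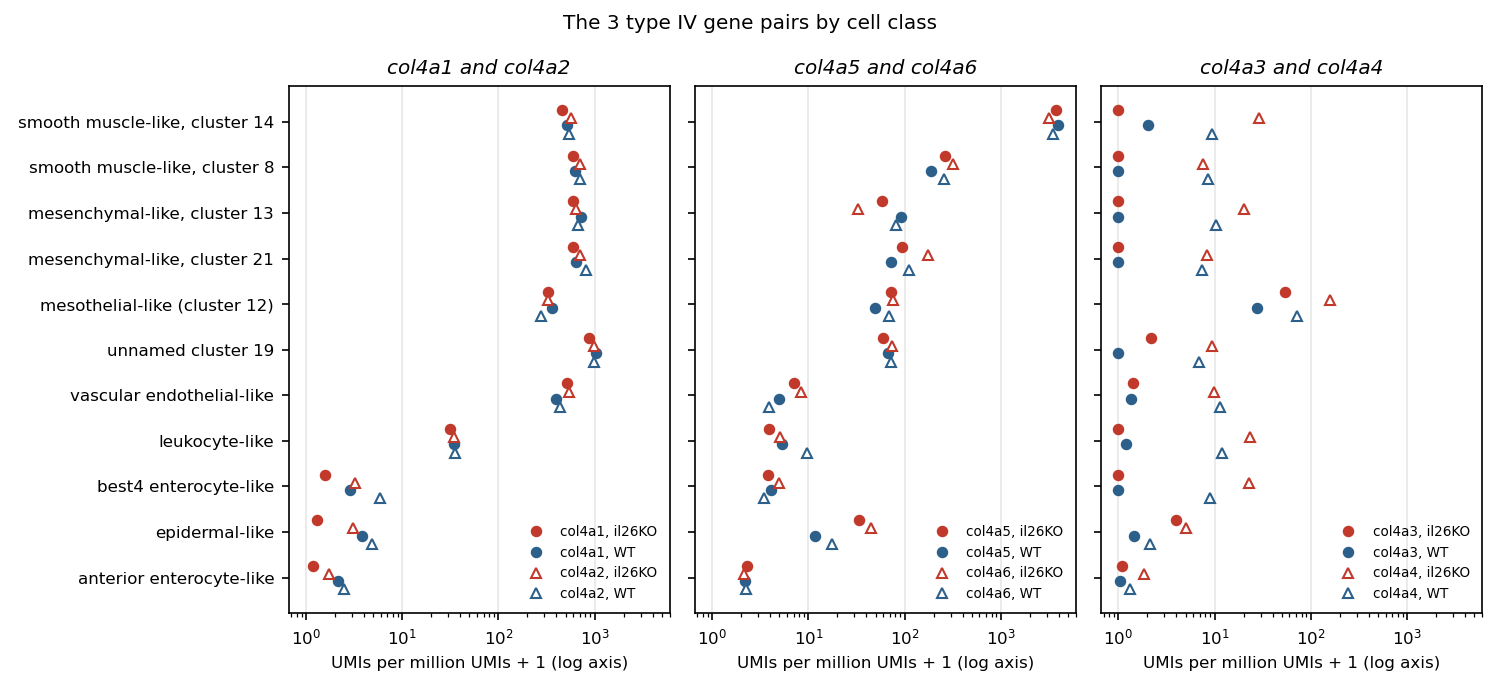
Levels of the 6 type IV chain genes in the collagen-rich clusters and 5 named classes (vertical axis), a panel for each neighboring pair, on a logarithmic axis of CPM plus 1, with il26KO in red above WT in blue and the members of a pair as circles and triangles. The pair col4a5 and col4a6 peaks in cluster 14, where the lowest of its 4 values is 3167 CPM, col4a1 and col4a2 stay close together from stromal to endothelial cells, and col4a3 is far from 0 only in mesothelial-like cells.

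Type VI collagen, whose filaments link cells to the surrounding matrix, was the most abundant type, with 24071 of 86871 collagen UMIs in il26KO and 52016 of 150962 in WT. Its core trimer needs an alpha-1 and an alpha-2 chain (col6a1, col6a2) and an alpha-3-type chain, which can be that of col6a3 or of the related col6a4a. Cluster 14 had the most col6a1, 4973 CPM in il26KO and 6554 CPM in WT, and the most col6a2, 4663 CPM in il26KO and 5621 CPM in WT. Of the alpha-3-type chains it had 176 CPM in il26KO and 79.9 CPM in WT for col6a3 and 491 CPM in il26KO and 244 CPM in WT for col6a4a. Cluster 13 had both alpha-3-type chains at higher levels, with 869.6 CPM in il26KO and 869 CPM in WT for col6a3 and 669 CPM in il26KO and 739.5 CPM in WT for col6a4a, beside 1231 CPM in il26KO and 1359 CPM in WT for col6a1. Cluster 8 had col6a3 at 359 CPM in il26KO and 355 CPM in WT but col6a4a only at 31.8 CPM in il26KO and 38.3 CPM in WT.

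Expressed per col6a1 UMI, col6a3 and col6a4a differed between clusters by more than an order of magnitude in WT. For col6a3 the ratio was 0.706 in il26KO and 0.639 in WT in cluster 13, 0.619 in il26KO and 0.531 in WT in cluster 21, and 0.0354 in il26KO and 0.0122 in WT in cluster 14. For col6a4a it was 0.543 in il26KO and 0.544 in WT in cluster 13, against 0.0987 in il26KO and 0.0372 in WT in cluster 14. The ratio of col6a1 to col6a2 moved far less, between 1.07 and 1.60 in il26KO and between 1.15 and 1.55 in WT over clusters 8, 13, 14, 19 and 21 and mesothelial-like cells. Across genes these ratios compare captured transcript ends, so their order between cells, and not their absolute size, is the measurement.

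**Figure D4:**
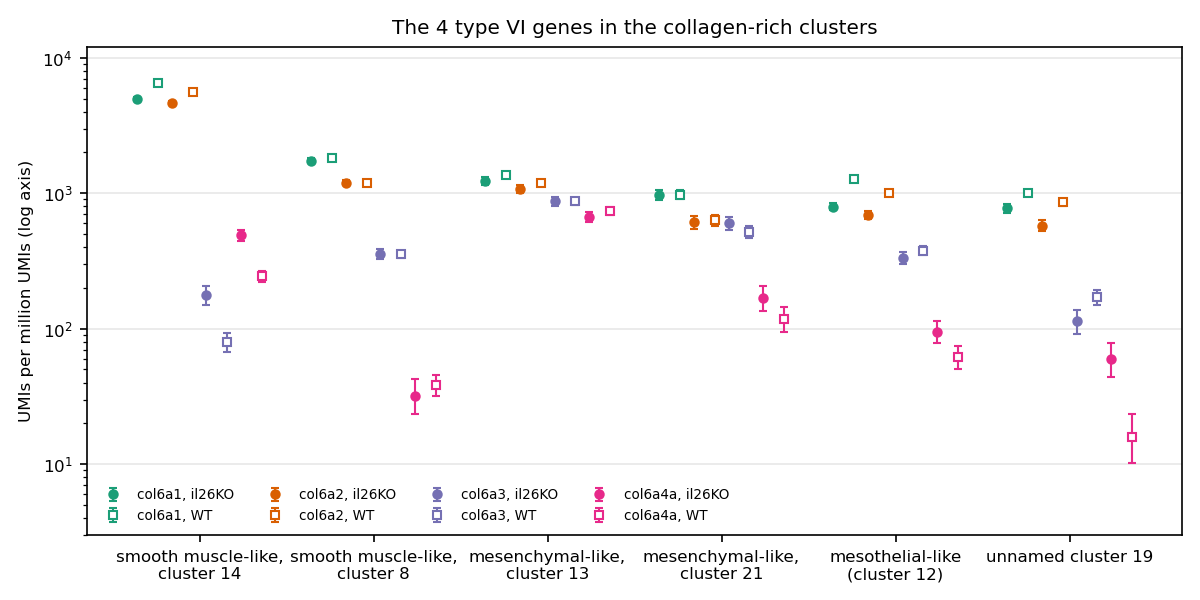
Levels of col6a1, col6a2, col6a3 and col6a4a (colors) in the 6 collagen-rich clusters (horizontal axis), il26KO as filled circles left of WT as open squares, with 95% intervals of counting error, on a logarithmic CPM axis. In cluster 14 col6a1 and col6a2 reach 4663 CPM or more while col6a3 stays at or below 176 CPM, whereas in cluster 13 the 4 genes lie between 669 and 1359 CPM.

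Fibril-associated collagens, which coat fibrils rather than form them, marked different stromal groups. The paralogs of type XII collagen were split: col12a1a was highest in mesothelial-like cells, at 443 CPM in il26KO and 664 CPM in WT, and col12a1b in cluster 13, at 569 CPM in il26KO and 462 CPM in WT. For each col12a1b UMI there were 3.07 col12a1a UMIs in il26KO and 2.92 in WT in mesothelial-like cells, and 0.293 in il26KO and 0.171 in WT in cluster 13. Gene col19a1, of the minor type XIX, was highest in cluster 21, at 300.1 CPM in il26KO and 281 CPM in WT. It also had 91.2 CPM in il26KO and 69.2 CPM in WT in skeletal muscle-like cells, against 7.47 CPM in il26KO and 0 CPM in WT in empty droplets. The skeletal muscle-like class had few cells, 15 il26KO and 27 WT in cluster 26 and 3 il26KO and 29 WT in cluster 27. All col19a1 UMIs of cluster 27, 12 in il26KO and 7 in WT, came from 1 cell in each library. Gene col16a1 followed clusters 14 and 13, with 265 CPM in il26KO and 347 CPM in WT in cluster 14 and 268 CPM in il26KO and 223 CPM in WT in cluster 13. The sparsely captured col21a1, a minor relative, had 24.6 CPM in il26KO and 16.5 CPM in WT in mesothelial-like cells.

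Gene col14a1a, whose type XIV chain binds type I fibrils, was detected in stromal and epithelial classes alike. It was found in cluster 8 (106 and 229.7 CPM in il26KO and WT), in cluster 13 (177 and 79.7 CPM) and in cluster 19 (169 and 69.9 CPM). It was likewise found in epithelial types, namely best4 enterocyte-like cells, with 81.3 CPM in il26KO and 45.6 CPM in WT, and pancreaticobiliary duct-like cells, with 78.2 CPM in il26KO and 56.3 CPM in WT. Anterior enterocyte-like cells had 2.27 CPM in il26KO and 2.68 CPM in WT, and the empty droplets 22.4 CPM in il26KO and 18.8 CPM in WT. In mesothelial-like cells the level was 1.64 CPM in il26KO and 5.50 CPM in WT, under that of the empty droplets.

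The endostatin-bearing collagens of types XV and XVIII sit at the border of basement membranes. Gene col18a1a was the third most abundant collagen gene, with 10016 UMIs in il26KO and 10840 in WT. Type XVIII made up 49.3% of the collagen UMIs of epidermal-like cells in il26KO and 66.6% in WT. The il26KO total includes 1 cell of cluster 9 with 345 col1a2, 306 col1a1a and 297 col10a1a UMIs, which lowers this share. Another il26KO cell of cluster 9 held 313 of the 2932 col18a1a UMIs of the epidermal-like cells, which count toward the share. The level of col18a1a was 351 CPM in il26KO and 337 CPM in WT in cluster 2 of the epidermal-like cells, 226 CPM in il26KO and 191 CPM in WT in epithelial progenitor-like cells, and 214 CPM in il26KO and 117 CPM in WT in pancreaticobiliary duct-like cells, against 162 CPM in il26KO and 80.6 CPM in WT in empty droplets. Lysosome-rich enterocyte-like cells, at 139 CPM in il26KO and 129.8 CPM in WT, did not exceed the empty droplets of their library in il26KO. Together, the 7 intestinal epithelial classes (epithelial progenitor-like, anterior, ileal, lysosome-rich and best4 enterocyte-like, goblet-like and enteroendocrine-like cells) held 11.1% of all collagen UMIs in il26KO and 5.58% in WT. They also held 70.2% of all UMIs of kept cells in il26KO and 61.5% in WT. The summed collagen level of each lay below the empty droplets, so these shares were not read as a difference in epithelial collagen. In the stroma col18a1a was found in cluster 14, at 566 CPM in il26KO and 589 CPM in WT, and in mesothelial-like cells, at 408 CPM in il26KO and 346 CPM in WT, whereas cluster 13 had 2.73 CPM in il26KO and 7.90 CPM in WT and cluster 8 4.64 CPM in il26KO and 8.73 CPM in WT.

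The relatives col15a1b and col18a1b had their highest levels over both libraries in cluster 19. There col15a1b had 139 CPM in il26KO and 289 CPM in WT and col18a1b 13.1 CPM in il26KO and 46.8 CPM in WT, against 55.7 CPM in il26KO and 72.1 CPM in WT for col15a1b in cluster 14 and 38.6 CPM in il26KO and 8.82 CPM in WT for col18a1b. Anchoring and membrane-spanning collagens were sparse. The type VII relative col7a1l, of the fibrils that anchor epithelia, had 11.5 CPM in il26KO and 10.4 CPM in WT in mesothelial-like cells and 11.8 CPM in il26KO and 3.19 CPM in WT in cluster 9. The hemidesmosome component col17a1b, a membrane-spanning collagen, had 27.6 CPM in il26KO and 10.1 CPM in WT in cluster 9 of the epidermal-like cells. Empty droplets held 1 UMI of col7a1l in il26KO and 0 in WT, and 1 UMI of col17a1b in each library. Their intervals reached 13.9 CPM for both genes in il26KO, and 9.91 CPM for col7a1l and 15.0 CPM for col17a1b in WT. So col7a1l was not separated from background in cluster 9 or in mesothelial-like cells in either library, nor was col17a1b in cluster 9 in WT. Duct-like cells had 9.29 CPM in il26KO and 14.8 CPM in WT of col28a1a, a type XXVIII chain, and neuron-like cells 10 UMIs in il26KO and 5 in WT of col11a2. Empty droplets held 0 UMIs of both genes, with intervals up to 9.19 CPM in il26KO and 9.91 CPM in WT that overlap the duct-like interval in il26KO (5.95 to 13.8 CPM) and the neuron-like intervals of both libraries, and these low levels were not read as expression.

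The il26KO counts of both short-chain collagen genes above 200 UMIs came largely from single cells. Gene col10a1a, of the type X collagen of mineralizing tissue, had 304 UMIs in il26KO, 297 of them in 1 cell of cluster 9, and 0 UMIs in 5123 WT cells (interval up to 0.0369 CPM). That cell also held 4655 of the library's 4763 scpp5 UMIs and 741 of its 750 enam UMIs, both genes of the mineral matrix of teeth, and 345 col1a2 UMIs. Gene col8a2 had 92 UMIs in il26KO in cluster 8, 83 of them in 1 cell, which also held 40 of the 65 col11a1b UMIs. Without these cells 7 il26KO UMIs of col10a1a and 77 il26KO UMIs of col8a2 remained in all. Of the 17 genes below 200 UMIs, col4a3 had 64.7% of its 167 UMIs in mesothelial-like cells, its main class. The other 16, among them col7a1 (161 UMIs), col8a1b (148), col9a1a (121), col9a1b (120), col9a3 (80) and col24a1 (44), had at most 40.4% of their UMIs in their main class.

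Between genotypes, collagen transcripts made up less of the il26KO library as a whole and nearly the same share of its main stromal classes. Over all kept cells the summed level was 908 CPM in il26KO and 1511 CPM in WT, a log2 ratio of il26KO over WT of -0.74 (-0.75 to -0.72), with the 95% interval in parentheses. Within the classes it was -0.050 (-0.079 to -0.021) in mesenchymal-like and -0.036 (-0.054 to -0.018) in smooth muscle-like cells. The sign of both changed with the processing. The ratio was 0.016 in mesenchymal-like cells with at most 10% mitochondrial UMIs and 0.020 in smooth muscle-like cells with doublets kept. Neither cluster of the mesenchymal-like class had a negative ratio when taken alone, so the negative class value went with the mix of its clusters. In the smooth muscle-like class the ratio was 0.066 in cluster 8 and -0.10 in cluster 14. Over all cells the difference went with the makeup of the libraries. The mesenchymal-like and smooth muscle-like classes made up 9.76% of il26KO cells and 15.5% of WT cells, and held 52120 of 86871 collagen UMIs in il26KO and 106439 of 150962 (70.5%) in WT. With the UMIs of each cluster weighted as in WT, the log2 ratio over all cells was -0.030. Cluster 14 contributed 77 il26KO cells and 209 WT cells, 29.3% of collagen UMIs in il26KO and 37.4% in WT. With 1 pool per genotype, a difference between the guts and a difference in their dissociation cannot be told apart.

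The spread between cells was far wider than these class ratios. Per cell, the summed collagen level of cluster 14 had a median of 24971 CPM in il26KO and 25912 CPM in WT. The quartiles were 17921 and 35541 CPM in il26KO, and 19742 and 36415 CPM in WT, so the ranges overlapped. Further from 0 were the ratios in mesothelial-like cells, -0.29 (-0.33 to -0.26), cluster 19, -0.23 (-0.28 to -0.18), and vascular endothelial-like cells, 0.30 (0.23 to 0.38). The vascular endothelial-like value includes cluster 23, at 1112 CPM in il26KO and 641 CPM in WT (log2 ratio 0.80). In WT that cluster lay below the empty droplets. Other cells below the empty droplets of their own library in il26KO or in WT were not compared between genotypes. Among them were epidermal-like cluster 9, which lay below in WT only, and the epithelial progenitor-like cells.

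Gene by gene, a collagen gene was called higher or lower in a class where it had at least 20 UMIs there, a ratio of at least 1.5 and an interval that excluded a ratio of 1. This rule describes the pair of libraries and is not a test of genotype. In mesenchymal-like cells, 2 of 30 collagen genes were called higher in il26KO, where the same rule called 7.03% of all genes, and 4 were called lower, where it called 4.26% of all genes. This total of 6 was not stable, with 13 calls at a minimum of 1000 genes per cell, 11 with doublets kept, 13 with the listed genes kept in the clustering, 11 with merged libraries, 11 at resolution 1.2 and 2 at a fold of 2. The shares of all genes given here belong to the main setting, and none is given for these alternatives. The median log2 ratio was -0.12 over the 30 collagen genes and 0.06 over all 10175 genes compared. In smooth muscle-like cells 10 of 33 were called higher, against 9.16% of all genes, and 1 lower, against 4.2%, with a median of 0.02 over the collagens and 0.08 over all 12606 genes. Smooth muscle-like calls were thus a larger share of the collagens than of all genes in the higher direction. These shares were not matched for abundance, and a gene with more UMIs has a narrower interval and is called more easily. The median log2 ratio over every gene that had 10 or more UMIs in each library was 0.11 in mesenchymal-like cells, 0.13 in smooth muscle-like cells, 0.18 in cluster 13, 0.16 in cluster 8, 0.11 in cluster 14 and 0.20 in cluster 19, and the ratios printed here are not corrected for it.

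In mesenchymal-like cells the genes called higher were col14a1a and col12a1a. For col14a1a there were 179 UMIs in il26KO and 174 in WT, 139.6 CPM in il26KO and 80.0 CPM in WT, a log2 ratio of 0.80 (interval 0.49 to 1.11). Gene col12a1a had 107 CPM in il26KO and 67.6 CPM in WT, a log2 ratio of 0.66, with 27.7% of its il26KO UMIs in 1 cell, and 0.30 without the richest cell of each library. In cluster 21 of the class, neither was called, with 89.1 and 80.6 CPM in il26KO and WT for col14a1a (log2 ratio 0.14, interval -0.42 to 0.71) and 27.3 and 47.3 CPM for col12a1a (-0.80, interval -1.77 to 0.11). The genes called lower were col11a1a (92.8 and 179.8 CPM in il26KO and WT, log2 ratio -0.95), col27a1b (80.3 and 124 CPM, -0.62), col9a2 (7.02 and 16.1 CPM, -1.2) and col2a1a (5 and 24 UMIs, -1.50). All 5 il26KO UMIs of col2a1a came from 1 cell. The abundant fibrillar genes stayed within 1.5-fold, with log2 ratios of -0.14 for col1a2, -0.15 for col1a1a, 0.054 for col1a1b and 0.18 for col5a1.

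In smooth muscle-like cells col14a1a went the other way. It was the only collagen gene called lower there, with 84.0 CPM in il26KO and 161 CPM in WT and a log2 ratio of -0.94 (interval -1.17 to -0.72). Called higher were col18a1b (14.7 and 3.31 CPM in il26KO and WT, log2 ratio 2.16), col11a1b (2.03), col8a2 (3.72), col21a1 (1.34), col2a1b (1.27), col12a1b (0.92), col4a4 (0.92), col6a4a (0.84), col12a1a (0.84) and col19a1 (0.70). Of these, col8a2 and col11a1b rested on the single cell described above, which held 88.3% (col8a2) and 44.0% (col11a1b) of their il26KO UMIs in the class. That cell also held 11 of the 24 il26KO col2a1b UMIs of cluster 8. Gene col4a4 had 36 UMIs in il26KO and 40 in WT in the class, and 2 UMIs in the empty droplets of each library. That level was not separated from free RNA, so the col4a4 call was not read as a difference in expression. The class's main collagens stayed within 1.5-fold, with log2 ratios of -0.27 for col6a1, -0.18 for col6a2, -0.022 for col4a5 and -0.069 for col4a6. When each gene was taken without its richest cell in each library, 9 smooth muscle-like and 4 mesenchymal-like calls were made. The shares of all genes given above were made with every cell kept and do not apply to these counts.

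Taken by cluster, the calls separated. In cluster 8, 8 of 26 collagen genes were called higher, against 11.1% of all genes, and 1 lower, against 4.52%. The lower one was col14a1a, with 160 UMIs in il26KO and 737 in WT, 106 CPM in il26KO and 229.7 CPM in WT and a log2 ratio of -1.12. In cluster 14, 6 of 28 were called higher, against 7.47% of all genes, and 0 lower, against 5.26%. These included both alpha-3-type chains of type VI collagen: col6a3 had 176 CPM in il26KO and 79.9 CPM in WT, a log2 ratio of 1.14 (interval 0.81 to 1.47), and col6a4a 491 CPM in il26KO and 244 CPM in WT, a log2 ratio of 1.01 (interval 0.82 to 1.2). The other 4 were col18a1b, col4a4, col11a1a and col2a1b. Gene col4a4 had 26 UMIs there in il26KO and 16 in WT, a WT level not separated from free RNA. Core chains col6a1 and col6a2 had log2 ratios of -0.40 and -0.27 in the same cells, so col6a3 and col6a4a UMIs per col6a1 UMI were higher in il26KO. A single il26KO cell held 36.0% of the col6a3 UMIs of the cluster, and 1 WT cell 20.8%.

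In cluster 13, 2 of 28 collagen genes were called higher, against 8.15% of all genes, and 4 lower, against 4.02%. Higher were col14a1a, with 177 CPM in il26KO and 79.7 CPM in WT (log2 ratio 1.16), and col12a1a, with 167 CPM in il26KO and 79.0 CPM in WT (1.08, 31.1% of its il26KO UMIs in 1 cell). Lower were col4a5 (-0.67), col4a6 (-1.34), col19a1 (-0.69) and col11a1a (-0.87). In cluster 21, the other part of the mesenchymal-like class, 2 of 19 collagen genes were called higher, against 6.09% of all genes, and 0 lower, against 6.96%. They were col4a6, with 173 CPM in il26KO and 110.0 CPM in WT (log2 ratio 0.65, interval 0.21 to 1.09), and col12a1b, with 164 CPM in il26KO and 76.8 CPM in WT (1.09). The ratio of col4a6 thus had opposite signs in clusters 13 and 21. Genes col4a5 (0.40), col19a1 (0.093) and col14a1a (0.14) were not called in cluster 21. In cluster 19, which had no class, 5 of 30 collagen genes were called higher, against 11.5% of all genes, and 10 lower, against 4.29%. Higher were col14a1a, with 169 CPM in il26KO and 69.9 CPM in WT, col18a1a, with 164 CPM in il26KO and 77.1 CPM in WT, col6a4a, col8a1a and col19a1. Lower were col15a1b, with 139 CPM in il26KO and 289 CPM in WT (log2 ratio -1.05), col18a1b, col6a3, col11a1a, col12a1b and col8a2, and the cartilage genes col2a1a, col9a1a, col9a2 and col9a3, which each had more than 50% of their WT UMIs in 1 cell. Gene col14a1a was therefore called higher in il26KO in clusters 13 and 19 and lower in cluster 8, and was not called in cluster 21 or in cluster 14, where it had 48.2 CPM in il26KO and 46.1 CPM in WT (log2 ratio 0.064, interval -0.49 to 0.60). The difference of these ratios between clusters was not tested. Marker levels moved beside them: in cluster 8 the 7 smooth muscle markers summed to 57138 CPM in il26KO and 76783 CPM in WT with 0 of them undetected, and the 10 mesenchymal markers to 1694 CPM in il26KO and 1177 CPM in WT with 0 undetected in il26KO and 1 in WT. In cluster 19 the 7 vascular endothelial markers summed to 212 CPM in il26KO and 52.1 CPM in WT, with 1 undetected in il26KO and 2 in WT. The part of these markers in the collagen ratios was not tested.

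In mesothelial-like cells, 4 of 30 collagen genes were called higher, against 6.78% of all genes, and 5 lower, against 5.77%. The neighboring pair col4a4 and col4a3 was among those higher, with 194 UMIs in il26KO and 117 in WT for col4a4 (log2 ratio 1.15, interval 0.82 to 1.5) and 65 UMIs in il26KO and 43 in WT for col4a3 (log2 ratio 1.02, interval 0.44 to 1.61). The other 2 were col5a3a and col6a4a. Among those lower was the abundant col6a1, with 796 CPM in il26KO and 1279.9 CPM in WT and a log2 ratio of -0.68, beside col12a1b (-0.66), col11a1b (-1.26), col2a1b (-0.61) and col9a2 (-2.97). The free-RNA level of col6a1 also differed, with 69.7 CPM in il26KO and 215 CPM in WT in empty droplets, as did the 6 cartilage markers of these cells, which summed to 167 CPM in il26KO and 49.5 CPM in WT with 1 undetected in each, and the part of either in the mesothelial differences was not tested. The 10 mesenchymal markers also reached 10293 CPM in il26KO and 11188 CPM in WT in this class, beside 4668 CPM in il26KO and 5206 CPM in WT for its own 6 mesothelial markers.

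**Figure D5:**
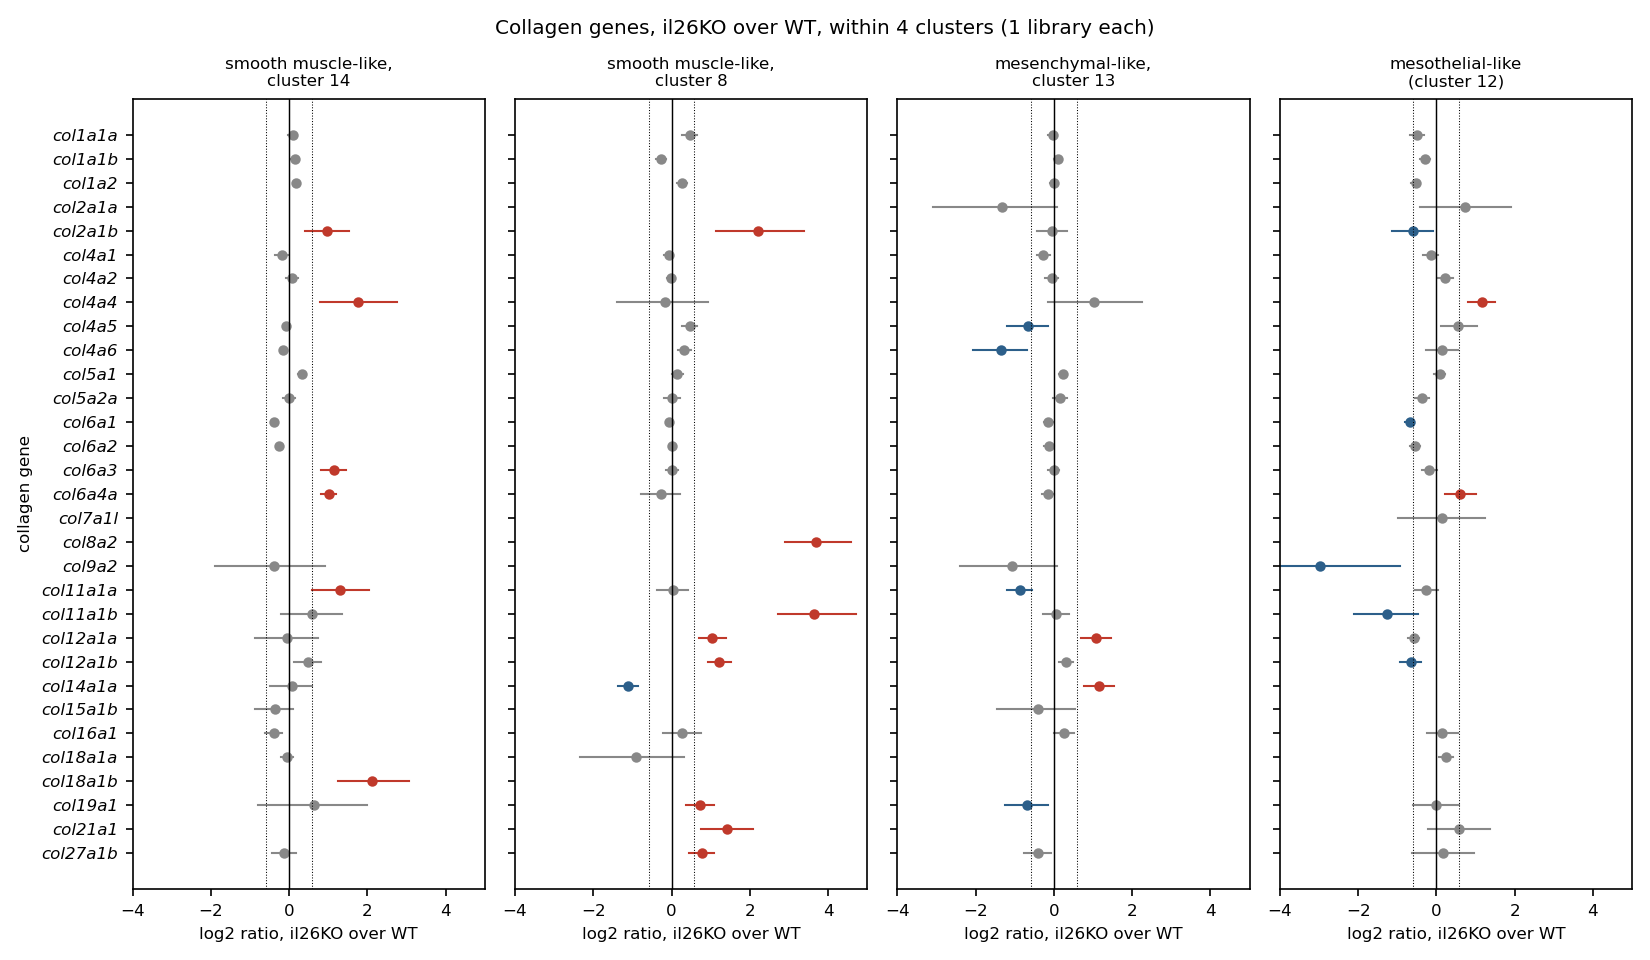
Log2 ratio of il26KO over WT (horizontal axis) for the compared collagen genes among the 35 (vertical axis) in clusters 14, 8, 13 and 12, a panel each, with 95% intervals of counting error, dotted lines at 1.5-fold, red for genes called higher and blue for genes called lower in il26KO. The type I and type V genes lie between the dotted lines in all 4 panels, and col14a1a lies left of them in cluster 8 and right of them in cluster 13.

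Many, but not all, of the genes that process and anchor collagen were highest in the same cells. Among genes for chain modification and folding, the main class was mesenchymal-like for 6, smooth muscle-like for 6 and mesothelial-like for 2. It was goblet-like for 3 (p4hb, ppib and mia3), vascular endothelial-like for 2, and anterior enterocyte-like (plod3) and enteroendocrine-like (sec23a) for 1 each. The gene serpinh1b, of the collagen chaperone of the endoplasmic reticulum, reached 6025 CPM in cluster 13 over both libraries, and sparc, of a collagen-binding glycoprotein, 7498 CPM in cluster 14. Of 22 genes for chain modification and folding, 20 could be compared in mesenchymal-like cells, where plod3, fkbp10a and mia3 were called higher and p3h2 (a prolyl 3-hydroxylase) lower. In smooth muscle-like cells all 22 could be compared, and plod3 (a lysyl hydroxylase) was called higher and p3h2 and colgalt1 lower. The summed level of this list in cluster 14 was 16835 CPM in il26KO and 15565 CPM in WT.

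Of 20 listed genes for propeptide cleavage and crosslinking, 19 were found. In mesenchymal-like cells 0 of 14 were called higher and 1 (adamts3, a propeptide-cleaving protease) lower. In smooth muscle-like cells 4 of 17 were called higher (loxa, loxl2b, loxl3a and loxl5b, all of the lysyl oxidase family of crosslinking enzymes) and 0 lower. Among 17 fibril-associated proteoglycans and glycoproteins, tnc was called higher and tnxba and postnb lower of 13 in mesenchymal-like cells, and bgna, ogna and fn1b were called higher and 0 lower of 10 in smooth muscle-like cells. Among 15 basement membrane partners, lamc3 was called higher of 11 in mesenchymal-like cells, and lama5 and nid2a higher of 14 in smooth muscle-like cells, with 0 lower in either class. Of 6 collagen receptors compared in mesenchymal-like cells itga2.2 was called higher, and of 4 collagen-cleaving enzymes 0 were called. Of 9 collagen receptors compared in smooth muscle-like cells 0 were called, and of 5 collagen-cleaving enzymes mmp14b and mmp15b were called higher. As descriptions these counts stand beside the backgrounds given above for the same classes.

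The ceramide transfer protein genes, included by the pattern of their symbols, behaved unlike the collagens. Gene col4a3bpb had 3109 UMIs in il26KO and 3627 in WT over all cells. It was spread over all classes, from 14.9 CPM in il26KO and 14.5 CPM in WT in skeletal muscle-like cells to 80.7 CPM in il26KO and 113 CPM in WT in neuron-like cells. Gene col4a3bpa had 19.4 CPM in il26KO and 45.4 CPM in WT in goblet-like cells, 32.0 CPM in il26KO and 41.5 CPM in WT in mesothelial-like cells and 3.22 CPM in il26KO and 7.26 CPM in WT in cluster 14.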

How the data were processed

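Gene counts per droplet barcode were deposited by the authors as whole-number UMI counts, from 1 library per genotype (a 10x 3' V2 kit by label). They were made with Cell Ranger on danRer11 per the submitters' processing notes, and the deposited counts themselves state version 7.1.0. The count of a transcript end does not depend on transcript length, and reads shared with a near-identical paralog can be lost in such counting. Barcodes with at least 500 genes and at most 25% mitochondrial UMIs were kept. Scrublet's automatic call marked 1 barcode per library, so the highest scores were removed instead at 0.8% per 1000 cells (126 in il26KO, 229 in WT). Kept cells held 78.3% of the UMIs in il26KO and 79.8% in WT. Cells were clustered with Seurat 5.3.0 in R 4.3.3 (log-normalization to 10000, 2000 variable genes with collagen and listed matrix genes left out, CCA integration, 30 dimensions, resolution 0.8) and classes were named from fixed markers, so they may differ from the study's own names. UMIs were summed per class and library with scanpy 1.11.5 and scipy 1.17.1. Levels carry exact Poisson intervals, and ratios exact conditional binomial intervals, which were checked on simulated data. Genes were named with values at 200 UMIs or more. All 52 collagen symbols were found in the RefSeq gene table (GRCz12tu), which was used for neighboring genes only, and no sequence is printed. The family and the gene lists were chosen with earlier results of these data known. Alternatives in gene minimum, mitochondrial limit, doublets, clustering, scaling, cell weighting and fold were computed.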

Additional observations from a re-analysis of the deposited data

How the results depend on the processing

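No paired analysis was possible because each genotype has 1 library, and for the same reason no replicate could be left out. Of 234 values of the 17 calls (15 genes, of which col12a1a and col14a1a were called in both classes) under the alternatives, 187 moved by less than their counting interval. In mesenchymal-like cells the family's log2 ratio (-0.05) was -0.13 with a minimum of 300 genes, 0.016 with at most 10% mitochondrial UMIs, -0.10 with doublets kept, 0.0024 with the listed genes kept in the clustering, 0.0080 with merged libraries, -0.084 at resolution 1.2, -0.16 with median-of-ratios scaling, -0.0015 with cells weighted equally and 0.0010 without the richest 1% of cells. In smooth muscle-like cells (-0.04) it was, with a minimum of 300 genes, -0.014, with a minimum of 1000 genes -0.12, with the mitochondrial limit -0.055, with doublets 0.020, with the listed genes -0.10, merged -0.087, with median-of-ratios scaling -0.16, with equal weights -0.14 and without the richest cells -0.072. Over all cells (-0.74) it was -0.79, -0.76, -0.82 and -0.76 with the minimum of 300, of 1000, the mitochondrial limit and doublets kept, -0.77 with median-of-ratios scaling, -0.61 with equal weights and -0.83 without the richest cells. The share of collagen UMIs in both classes was 65.8% in il26KO and 76.8% in WT with a minimum of 300 genes, 67.0% and 78.4% with 1000, 61.5% and 71.3% with the mitochondrial limit, 71.6% in WT with doublets, 66.9% and 78.4% with the listed genes, 65.5% and 77.3% merged, and 65.5% and 77.2% at resolution 1.2. Calls in mesenchymal-like cells (6) numbered 13 with a minimum of 1000 genes, 11 with doublets, 13 with the listed genes, 11 merged, 11 at resolution 1.2 and 2 at a fold of 2, where smooth muscle-like calls (11) numbered 5. No share of all genes stands beside these alternative counts. Reversed were col2a1a (0.74 with a minimum of 300 genes, 0.29 with equal weights), col8a2 (-1.40 and -1.42 with a minimum of 300 and 1000), col11a1b (-0.32 with 1000) and col19a1 (-0.10 with equal weights). Chosen after seeing the data, clusters alone gave family ratios of 0.0025 (cluster 13), 0.081 (cluster 21, with 2 calls), 0.066 (cluster 8) and -0.10 (cluster 14, with 6 calls), -0.084 with cluster 19 added to the mesenchymal-like class, and -0.030 over all cells at WT shares. Shares were 75.5% and 86.7% with mesothelial-like cells and cluster 19 added. By cluster, col12a1a (-0.80) and col11a1a (1.51) reversed in cluster 21, col6a4a (-0.27) and col4a4 (-0.17) in cluster 8, and col14a1a (0.064) and col12a1a (-0.052) in cluster 14. The cause of these changes was not tested. Depth limits what can be read from genes below 200 UMIs.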
